A study of Homo sapiens with 6 samples.

Results

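Broad domains of RNA polymerase II (Pol II), each at least 5000 bp wide, were described in SK-Hep1 cells, an established human line from a liver adenocarcinoma. They were collected from 3 deposited Pol II ChIP-seq peak lists. The conditions were siRNA against malic enzyme 2 with α-ketoglutarate added (siME2+αKG), the same siRNA alone (siME2), and the control siRNA (siCtrl, labelled nc). Each condition had 1 ChIP library, precipitated with an antibody to polymerase II, and 1 input library, which entered only through the peak caller. No condition had a replicate ChIP library here, so every difference below is between libraries, with no test between conditions. Sample titles number siME2 and siCtrl as replicate 2 but give siME2+αKG no number, so comparisons with siME2+αKG may cross replicate sets, and other replicates were not analysed here. The study asked how knockdown of ME2 and addition of αKG change Pol II transcription of the cyclin D1 gene. A peak on chromosomes 1 to 22 or X entered when it was at least 5000 bp wide in any of the 3 lists, and peaks that overlapped by at least 1 bp were merged. This gave 367 domains of the 37552 merged regions in the lists. The members were thus selected on the deposited peak widths, so widths and the break-up of the domains are given as descriptions. Regions merged from peaks of 2 to under 5 kb outside the domains (2769) served as the nearest narrower set.

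Pol II is loaded at promoters, usually pauses a short way into the gene, and is released into the gene body by the kinase P-TEFb. It then travels past the polyadenylation site before it leaves the template. ChIP-seq at most active genes therefore gives a narrow peak at the start site, and a wide, unbroken stretch of signal is seen where polymerase is dense over a whole gene, as at very highly transcribed short genes and at long nuclear RNAs. ME2 is a mitochondrial enzyme that turns malate into pyruvate, and αKG is an intermediate of the tricarboxylic acid cycle. The peak caller marked where fragments exceeded the local input, and it joined marked stretches that lay within 150 bp, the tag size, of each other. A wide domain thus ends, or breaks into pieces, wherever the signal dips below the caller's threshold for longer than that.

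The promoters of 5 genes in the domains are printed because a TATA box, the sequence bound by the TATA-binding protein, was counted at a larger share of the start sites inside domains than of those in the narrower regions. Each line gives the 100 bases before the annotated start site, 5′ to 3′ on the gene's own strand, from the hg19 genome, with TATAAA in capitals. CCN1 encodes a secreted matrix protein and lies on the + strand at chr1:86046344-86046443. DUSP1 encodes a phosphatase of MAP kinases and lies on the - strand at chr5:172198199-172198298. HEXIM1 encodes an inhibitor of P-TEFb and lies on the + strand at chr17:43225742-43225841. JUNB encodes an AP-1 subunit and lies on the + strand at chr19:12902200-12902299. MAT2A encodes the enzyme that makes S-adenosylmethionine and lies on the + strand at chr2:85766191-85766290.
CCN1: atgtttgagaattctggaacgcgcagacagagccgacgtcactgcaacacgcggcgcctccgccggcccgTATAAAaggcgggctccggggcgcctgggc
DUSP1: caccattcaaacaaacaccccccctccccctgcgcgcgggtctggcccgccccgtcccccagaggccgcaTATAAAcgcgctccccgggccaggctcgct
HEXIM1: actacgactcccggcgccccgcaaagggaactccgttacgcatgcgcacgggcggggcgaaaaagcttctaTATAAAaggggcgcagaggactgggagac
JUNB: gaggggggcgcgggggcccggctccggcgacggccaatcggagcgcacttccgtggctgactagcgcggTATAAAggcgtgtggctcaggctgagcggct
MAT2A: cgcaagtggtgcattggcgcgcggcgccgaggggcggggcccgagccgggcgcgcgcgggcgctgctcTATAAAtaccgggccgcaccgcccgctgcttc

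The letters TATAAA, read on the sense strand and lying wholly between 40 and 20 bases before the first annotated start site, stood at 16 of the 270 protein-coding genes whose start site lay in a domain. That is 5.93% (95% exact binomial interval 3.42 to 9.45). The share was 2.52% (1.84 to 3.37) for 1746 start sites in the regions of 2 to under 5 kb, and 2.84% for all 20098 protein-coding genes. The 16 genes also include EEF2, CEBPB, ADM, DKK1 and 3 neighbouring histone genes, H3C14, H3C15 and H2AC19, which belong to near-identical families in which reads can be hard to place. For the other motifs, read on both strands of the 250 bases before the start, the share over all genes lay inside the interval of the share in domains. TGANTCA, the AP-1 motif, stood at 4.44% (2.32 to 7.63) of start sites in domains and at 5.45% of all genes. GGAATG, the TEAD motif, stood at 10.0% (6.69 to 14.2) of start sites in domains and at 11% of all genes, and CACGTG, the E-box, at 6.30% (3.71 to 9.89) and 7.17%. CCAAT, bound by NF-Y, stood at 37.8% (32.0 to 43.9) of the start sites in domains and at 33.1% of all genes. A match of letters is no evidence that a factor was bound.

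The breaks between pieces are shown by the sequence that was left out of a list. Each line below is the + strand of hg19 over a gap between neighbouring peaks of 1 list inside a domain, with every CG dinucleotide in capitals, and none of these gaps overlaps an annotated exon. The gap at CCND1, the cyclin D1 gene, separated the 2 pieces of the siCtrl list at chr11:69454614-69454787, upstream of the start site. It is 174 bp long with a GC content of 31.6%. The gap at VIM, the gene of the intermediate filament vimentin, was in the siME2 list at chr10:17269983-17270203 (221 bp, 44.3% GC). The gap at RPL3, a ribosomal protein gene, was also in the siME2 list, at chr22:39712440-39712640 (201 bp, 52.2% GC).
CCND1 gap: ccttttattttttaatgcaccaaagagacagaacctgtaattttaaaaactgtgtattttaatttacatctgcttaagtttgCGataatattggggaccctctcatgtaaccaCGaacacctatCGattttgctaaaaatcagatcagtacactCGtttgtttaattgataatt
VIM gap: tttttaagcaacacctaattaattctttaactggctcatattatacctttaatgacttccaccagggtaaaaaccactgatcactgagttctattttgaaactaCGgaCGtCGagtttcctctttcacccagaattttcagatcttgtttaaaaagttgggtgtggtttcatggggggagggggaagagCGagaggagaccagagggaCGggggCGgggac
RPL3 gap: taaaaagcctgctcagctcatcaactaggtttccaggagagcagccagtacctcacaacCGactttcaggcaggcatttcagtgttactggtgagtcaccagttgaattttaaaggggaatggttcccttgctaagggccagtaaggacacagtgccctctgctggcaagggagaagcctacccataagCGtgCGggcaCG

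The domains were 5000 to 35700 bp wide with a median of 6528 bp, and 228 of them (62.1%) were under 7500 bp. Widths of at least 10000 bp were reached by 63 domains, of at least 15000 bp by 16, and of at least 20000 bp by 3. The widest was at PLEC, the gene of the cytoskeletal linker plectin (chromosome 8, 144984083 to 145019782, 35700 bp), followed by ITGA3, an integrin subunit (chromosome 17, 48131589 to 48160196, 28608 bp). The third lay in the long non-coding RNA gene LINC-PINT (chromosome 7, 130577267 to 130602523, 25257 bp). Domains of 15926 to 18444 bp lay at GPRC5A, SLFNL1 (reaching SCMH1 and CTPS1), NEAT1, TOR3A (reaching ABL2), MOK, AMOTL2, ZNFX1, FLNA and SQSTM1. At the threshold, the narrowest members were single peaks of 5000 bp in siCtrl at NOTCH1, of 5000 bp in siME2+αKG at MAN1B1 and DPP7, and of 5002 bp in siME2+αKG at PCBP1. Just outside were peaks of 4991 bp in siME2+αKG at NOP14, 4984 bp in siCtrl at DAPK3 and 4982 bp in siCtrl at the histone genes H2BC4 and H2AC6. Chromosome 17 held 49 of the domains (13.4%), against 7.82% of all merged regions, and chromosomes 4 and 18 held 2 each.

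Many domains spanned a short gene from end to end. Genes came from GENCODE release 44 on GRCh37, and the leading gene of a domain was the protein-coding gene with the most base pairs in it. The leading gene lay wholly inside the domain in 78 domains (21.3%), against 1.70% of the regions of 2 to under 5 kb. Another 78 domains (21.3%, against 43.4%) held the start but not the end of their leading gene, 106 (28.9%, against 9.06%) held the end but not the start, and 81 (22.1%, against 32.6%) lay inside it. The other 24 (6.54%, against 13.2%) overlapped no protein-coding gene. A wide region has more room for a whole gene, so the width that chose the domains enters these shares. Gene bounds are those of the longest annotated transcript, which puts ACTB and GDF15, for example, among the genes whose start was not held.

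**Figure D1:**
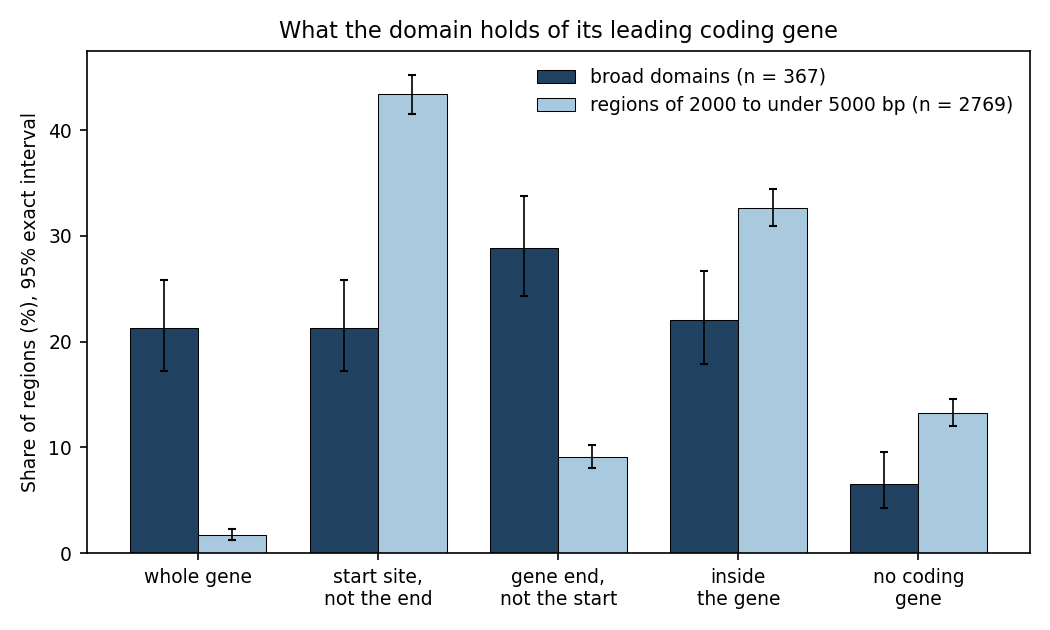
Share of broad domains (dark bars, n = 367) and of regions of 2 to under 5 kb (light bars, n = 2769) by what they hold of their leading protein-coding gene, in percent with 95% exact binomial intervals for counting error. Whole genes were held by 21.3% of the domains and 1.70% of the narrower regions, while start sites without the gene's end were held by 21.3% and 43.4%.

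Leading genes that lay wholly inside a domain had a median length of 3845 bp, against 27256.5 bp over all annotated protein-coding genes. A gene inside a domain cannot be longer than it, and these domains had a median width of 7959.5 bp. Their short length thus follows from the definition of the class. Leading genes held at the start had a median of 14805 bp, those held at the end 16805 bp and those that enclosed their domain 36280 bp. How far a domain ran past the annotated gene end was read only where it held that end, so the distance cannot be negative. The stretch beyond can also belong to a neighbouring gene. In the domains holding a gene end but not its start, the domain reached a median of 2799.5 bp (quartiles 2055.5 and 4199.75) beyond it, and in the whole-gene domains a median of 2499 bp beyond it and 1168.5 bp upstream of the start. ATF4, a stress-response transcription factor gene of 2989 bp, lay in a domain of 9316 bp (chromosome 22, 39914641 to 39923956) that began 1059 bp upstream and ended 5268 bp past the gene. RPL13, a ribosomal protein gene of 3866 bp, lay in one of 11913 bp that ran 6230 bp past its end. At PLEC the domain reached 5238 bp past the gene.

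In all, 536 of 20098 protein-coding genes (2.67%) overlapped a domain, 197 with at least 50% of the gene covered and 120 wholly inside. More domains than narrower regions touched several genes, 160 (43.6%, against 25.1%) touching at least 2 and 51 (13.9%, against 3.61%) at least 3. A start site of any annotated protein-coding transcript lay in 282 domains (76.8%, 95% exact interval 72.2 to 81.1), against 69.4% of the narrower regions. With the first start site of each gene alone the share was 53.7%. The highest summit lay within 1000 bp of such a start site in 229 domains (62.4%) in siME2+αKG, 228 (62.1%) in siME2 and 225 (61.3%) in siCtrl. It did so in all 3 lists in 214 domains (58.3%). The narrower regions had 66.4%, 66.5% and 66.7% in the same lists, and 64.6% in all 3. The domains had a median GC content of 56.1% and 30.9 CpG per kb, against 58.7% and 50.4 in the narrower regions. All merged regions, with 56.1% and 30.1, were close to the domains.

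The domains held many housekeeping and growth-response genes. Read against the 2.67% of all protein-coding genes that overlapped a domain, 37 of 79 genes of cytosolic ribosomal proteins did so, as did 15 of 30 immediate early and AP-1 genes, 17 of 36 actin, tubulin and intermediate filament genes, and 8 of 18 translation factor genes. Domains also overlapped 9 of 19 genes of the ATF4 stress response and 6 of 18 targets of the YAP and TEAD growth regulators. Of 18 annotated snoRNA host and nuclear non-coding RNA genes, 11 overlapped domains, and no share over all non-coding genes was computed to set beside this. MALAT1, SNHG7 and SNHG12 lay wholly inside, but the overlap was only 1.46% of PVT1 and 17.7% of SNHG5. MIR21, of 72 bp, counted through the domain at VMP1. Smaller counts came from NRF2, redox and iron genes (5 of 17), extracellular matrix and adhesion genes (4 of 26), heat shock and chaperone genes (3 of 20), glycolysis genes (3 of 18), EGFR ligands and feedback genes (2 of 14) and splicing factor genes (2 of 27). Only 1 of 10 D-type cyclins, their kinases and inhibitors (CCND1) and 1 of 23 annotated replication-dependent histone genes (H4C14) overlapped a domain. Other genes of the same histone cluster, H3C14, H3C15, H2AC19, HIST2H2AA3 and H4C15, also overlapped domains but were not on that list. ME2 lay in no domain. The lists hold genes known for high transcription, and they were drawn up with earlier results of these data known. Some genes, among them AXL, PLEC and SLC7A5, overlapped several domains. The values per list below use only the domain with the largest overlap of each gene.

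Among ribosomal protein genes, the widest overlaps were at RPL37A, RPL28 and RPL3. The 37 ribosomal domains held a peak of at least 5000 bp 30 times in siME2+αKG, 14 times in siME2 and 33 times in siCtrl. Over all 367 domains the numbers were 245 (66.8%), 147 (40.1%) and 298 (81.2%) in the same lists, so the low siME2 count was shared by the domains as a whole. The median number of pieces in the ribosomal domains was 1, 3 and 1 in siME2+αKG, siME2 and siCtrl. At RPL3 (chromosome 22, 39705058 to 39716859, 11802 bp), the list held 1 peak of 11433 bp in siME2+αKG, 3 peaks with 10824 bp between them in siME2, and 1 peak of 11493 bp in siCtrl. Its highest summits were 109, 71 and 108 fragments in siME2+αKG, siME2 and siCtrl. The median log2 ratio of covered width over the ribosomal domains was -0.18 for siME2 over siCtrl, against -0.13 over all domains and -0.18 over all merged regions. RPL8 went the other way, with 1 piece in siME2+αKG, 1 in siME2 and 3 in siCtrl.

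Of the 8 domains of translation factor genes, 7 held a peak of at least 5000 bp in siME2+αKG, 6 in siME2 and 6 in siCtrl. Over all domains the shares were 66.8%, 40.1% and 81.2% in the same lists. EEF2, the elongation factor that moves the ribosome along, had a domain of 11465 bp (chromosome 19, 3974320 to 3985784) around the whole gene, in 1 piece in siME2+αKG, 2 in siME2 and 1 in siCtrl. EIF1, a factor for start-codon choice, had the second highest siCtrl summit of any domain, with 170 fragments in siME2+αKG, 134 in siME2 and 186 in siCtrl. H3-3B, a gene for the histone H3.3 that is made throughout the cell cycle, had the highest, with 193, 147 and 190 fragments in siME2+αKG, siME2 and siCtrl. The H3-3B domain was a single piece in every list, of 4975 bp in siME2+αKG, 4630 bp in siME2 and 5081 bp in siCtrl. Divided by the tags, these H3-3B summits were 14.9, 14.1 and 14.6 fragments per 1000000 tags in the same lists, much closer together than the fragment numbers.

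Immediate early genes, which growth factors and stress induce within minutes, gave wide peaks in 12 of 15 domains in siME2+αKG, 9 in siME2 and 13 in siCtrl. The shares over all domains were 66.8%, 40.1% and 81.2% in the same lists. FOSL1, an AP-1 subunit, lay wholly inside 15409 bp (chromosome 11, 65655298 to 65670706), which also held CCDC85B and part of FIBP, and was covered by 1 piece in siME2+αKG, 2 in siME2 and 2 in siCtrl. ZFP36L1, a gene for an mRNA decay factor, lay in 11948 bp with 2, 3 and 2 pieces in siME2+αKG, siME2 and siCtrl. IER2 and DUSP1 stayed in 1 piece in all 3 lists, with 7092, 6657 and 7208 bp at IER2 and 7017, 6990 and 7174 bp at DUSP1 in siME2+αKG, siME2 and siCtrl. JUN, an AP-1 subunit, was 2 pieces in siME2+αKG, 1 in siME2 and 2 in siCtrl, and MYC, the growth-promoting transcription factor, was 3, 2 and 1 pieces in siME2+αKG, siME2 and siCtrl. DUSP5, a phosphatase that acts on ERK, had 2 domains. The one at the gene's end (chromosome 10, 112266671 to 112272680) was covered over 3021 bp in siME2+αKG, 1292 bp in siME2 and 6010 bp in siCtrl. That was the lowest covered-width ratio of siME2 over siCtrl among the domains (log2 -2.22), and its summits were low, with 19, 12 and 19 fragments in siME2+αKG, siME2 and siCtrl.

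All 6 domains counted for YAP and TEAD targets held a wide peak in siME2+αKG and in siCtrl, and 5 did in siME2. A wide peak was held by 66.8%, 40.1% and 81.2% of all domains in siME2+αKG, siME2 and siCtrl, and nothing particular is read from 6 domains. CCN1 lay inside 9611 bp (chromosome 1, 86041719 to 86051329), with 158 fragments over its summit in siME2+αKG, 113 in siME2 and 175 in siCtrl. Most of the AMOTL2 gene, which encodes a junction protein that binds YAP, was covered by 4 pieces in siME2+αKG, 4 in siME2 and a single peak of 17126 bp in siCtrl. Cytoskeleton genes gave wide peaks in 11 of 17 domains in siME2+αKG, 8 in siME2 and 16 in siCtrl, to be read against the same shares of all domains. ACTG1, cytoplasmic γ-actin, lay in 13935 bp with 4 pieces in siME2+αKG, 2 in siME2 and 1 in siCtrl. VIM, whose siME2 gap is printed above, was 1 piece of 8151 bp in siME2+αKG, 3 pieces with 7647 bp in siME2 and 1 piece of 8314 bp in siCtrl.

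Of the 9 ATF4 stress-response domains, 5 held a wide peak in siME2+αKG, 1 in siME2 and 8 in siCtrl, against 66.8%, 40.1% and 81.2% of all domains in the same lists. Their median log2 covered-width ratio of siME2 over siCtrl was -0.30, against -0.13 over all domains and -0.18 over all merged regions, and nothing particular to these genes is read from 9 domains. ATF4 itself was 1 piece of 9139 bp in siME2+αKG, 3 pieces with 8177 bp in siME2 and 1 piece of 9073 bp in siCtrl. DDIT4, an inhibitor of mTORC1 signalling, was a single piece of 6251 bp in siME2+αKG, 4988 bp in siME2 and 6157 bp in siCtrl. HSPA5, the endoplasmic reticulum chaperone BiP, was among the domains that broke up most: 8540 bp (chromosome 9, 127997026 to 128005565) held 5 pieces with 7461 bp in siME2+αKG, 7 pieces with 5792 bp in siME2 and a single peak of 8540 bp in siCtrl. Its summits were 96, 67 and 102 fragments in siME2+αKG, siME2 and siCtrl, or 7.41, 6.41 and 7.84 per 1000000 tags. SQSTM1, an autophagy receptor and NRF2 target, lay in 15926 bp with 3, 2 and 1 pieces in siME2+αKG, siME2 and siCtrl.

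CCND1 lay in a domain of 12323 bp (chromosome 11, 69451398 to 69463720) that began 4526 bp upstream of the gene and covered 59% of it (7797 bp). The list held 2 pieces with 12051 bp in siME2+αKG, 3 pieces with 11716 bp in siME2 and 2 pieces with 12149 bp in siCtrl. The widest CCND1 peak was 11739 bp in siME2+αKG, 8456 bp in siME2 and 8933 bp in siCtrl, and the upstream gap of the siME2 and siCtrl lists was closed in siME2+αKG. The highest CCND1 summit was 90 fragments in siME2+αKG, 73 in siME2 and 98 in siCtrl, which is 6.95, 6.99 and 7.53 per 1000000 tags in the same lists. The log2 height ratio was -0.11 for siME2 over siCtrl (95% interval -0.57 to 0.34) and -0.01 for siME2+αKG over siME2 (-0.47 to 0.46), so no height difference was detectable at this depth.

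Of the 24 domains without a protein-coding gene, 16 had a long non-coding RNA gene as their leading gene, 2 lay over 5S ribosomal RNA genes or pseudogenes and 6 overlapped no annotated gene. NEAT1, the scaffold RNA of paraspeckles, had a domain of 17563 bp at its 5′ part (chromosome 11, 65181027 to 65198589), in 2 pieces in siME2+αKG, 3 in siME2 and 1 in siCtrl, and a second of 7811 bp at its 3′ end in 5, 7 and 1 pieces. MALAT1, another abundant nuclear RNA, lay wholly inside 13119 bp (chromosome 11, 65263372 to 65276490). It was 1 piece in every list, of 12942 bp in siME2+αKG, 12694 bp in siME2 and 13024 bp in siCtrl. Its highest summit was 123 fragments in siME2+αKG, 74 in siME2 and 88 in siCtrl. That is a log2 height ratio of 0.49 for siME2+αKG over siCtrl (95% interval for counting error 0.08 to 0.90). MALAT1 was the 1 domain of 367 whose interval lay above 0 in that comparison, against 0.159% of all merged regions. LINC-PINT held 3 neighbouring domains of 7642, 12926 and 25257 bp. The widest was in 3 pieces in siME2+αKG, 6 in siME2 and 1 in siCtrl, and the others were also single peaks in siCtrl. LINC03061 showed the reverse order, with 7 pieces in siME2+αKG, 1 of 14207 bp in siME2 and 4 in siCtrl. The 5S domains lay over the cluster on chromosome 1, whose near-identical copies make the placing of reads uncertain.

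Wide peaks were a small part of every list. siME2+αKG held 254 peaks of at least 5000 bp among 28949 (0.877%), siME2 held 153 among 29172 (0.524%) and siCtrl held 307 among 31690 (0.969%). Their median widths were close, 6478.5 bp in siME2+αKG, 6338 bp in siME2 and 6633 bp in siCtrl, and the widest reached 22206, 17050 and 25257 bp in the same lists. Counts of siME2 peaks relative to siCtrl fell with width, with ratios of 0.979 under 1 kb, 0.845 for 1 to 2 kb, 0.675 for 2 to 5 kb, 0.577 for 5 to 7.5 kb, 0.362 for 7.5 to 10 kb and 0.357 from 10 kb up. The ratios of siME2+αKG to siME2 over the same classes were 0.953, 1.06, 1.21, 1.52, 2.16 and 1.87. Those of siME2+αKG to siCtrl were 0.932, 0.893, 0.814, 0.878, 0.783 and 0.667. The difference between siME2 and siCtrl was therefore not limited to peaks over 5 kb, but grew with width from 1 kb on.

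**Figure D2:**
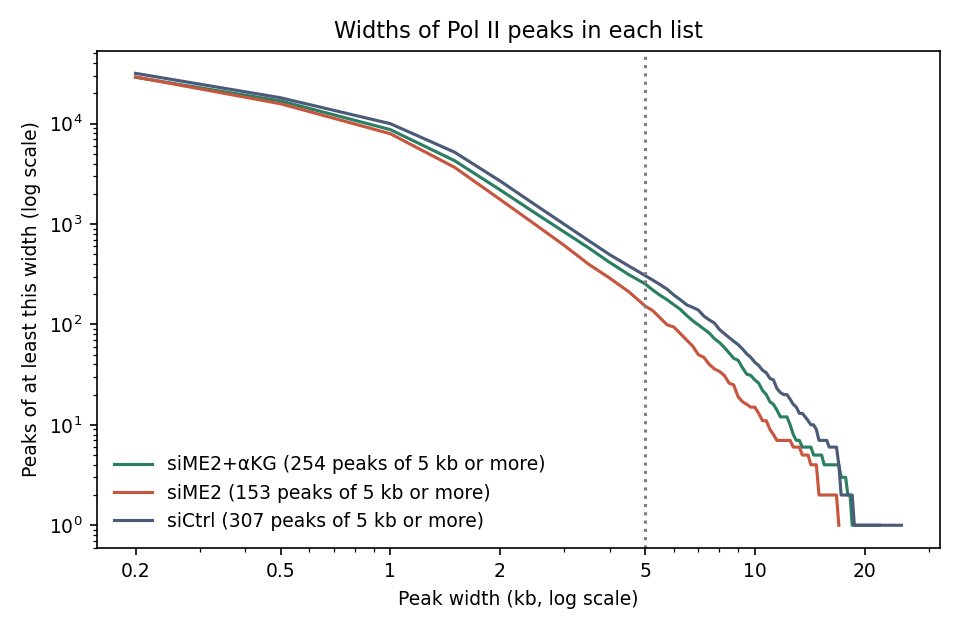
Number of listed peaks (log scale) of at least a given width (kb, log scale) in siME2+αKG, siME2 and siCtrl, with 5 kb marked by the dotted line. The lines lie close together at narrow widths and part towards wide ones, with 254, 153 and 307 peaks of 5 kb or more in siME2+αKG, siME2 and siCtrl.

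Depth differed between the lists and moved with these counts. After duplicate removal by the caller, the ChIP libraries held 12955596 tags in siME2+αKG, 10445326 in siME2 and 13006504 in siCtrl, and the estimated fragment lengths were 221, 201 and 211 bp. The lowest summit a list still held was 8, 7 and 8 fragments, or 0.617, 0.670 and 0.615 per 1000000 tags, in siME2+αKG, siME2 and siCtrl. The part of depth in the siME2 differences was not tested. The input libraries, which set the local background, held 11656782, 13079567 and 15111004 tags in the same lists, and their part was not tested either. Of the marker genes listed for the cell line, none of 8 hepatocyte markers had a promoter peak in any list, while 7, 6 and 7 of 8 endothelial and mesenchymal markers did in siME2+αKG, siME2 and siCtrl, with VIM and SPARC in domains and COL1A1 without a peak. Of 6 leukocyte markers, CORO1A alone had one, in each list.

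Every domain held at least 1 peak in every list, so none was lost. A wide peak was present in all 3 lists in 109 domains (29.7%), in siCtrl alone in 96, in siME2+αKG and siCtrl in 78, in siME2+αKG alone in 46, in siME2 and siCtrl in 15, in siME2+αKG and siME2 in 12, and in siME2 alone in 11. The domain was a single peak in 165 cases (45.0%) in siME2+αKG, 69 (18.8%) in siME2 and 231 (62.9%) in siCtrl. It lay in 4 or more pieces in 45, 112 and 18 cases in siME2+αKG, siME2 and siCtrl. The median share of a domain covered by peaks was 94.6% in siME2+αKG, 88.9% in siME2 and 98.8% in siCtrl. At least 50% of the domain was covered in 367 domains in siME2+αKG, 358 in siME2 and 367 in siCtrl, and the lowest share, in siME2, was 21.5%, at DUSP5. Single peaks in every list were kept by 29 domains, among them H3-3B, MAT2A, MALAT1, RPS2, FTH1, IER2, DUSP1, DDIT4 and GDF15.

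**Figure D3:**
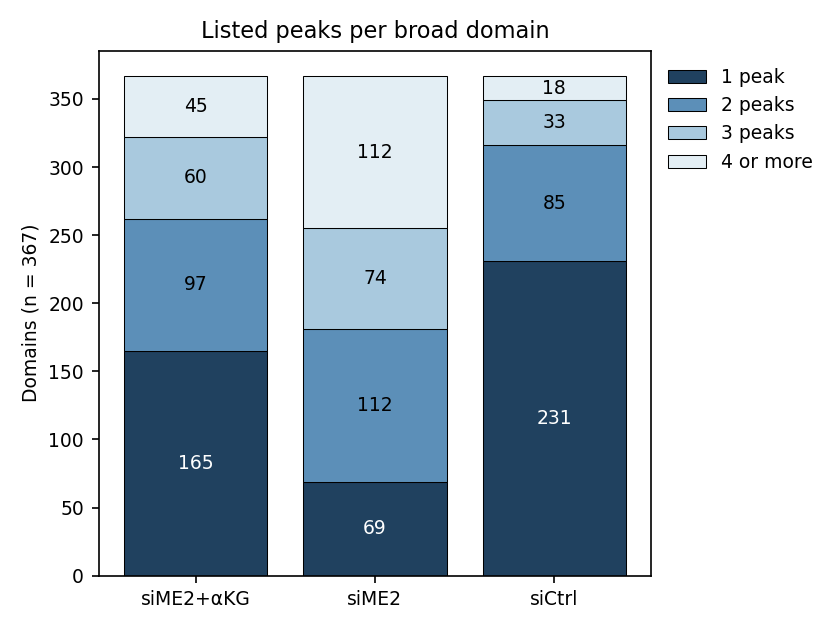
Number of listed peaks in each of the 367 domains, as stacked counts of domains with 1, 2, 3 or at least 4 peaks in siME2+αKG, siME2 and siCtrl. Single-peak domains number 165 in siME2+αKG, 69 in siME2 and 231 in siCtrl, and domains in at least 4 pieces number 45, 112 and 18.

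Counting a domain as broken up when it was 1 peak in the list named second and at least 2 in the list named first, and as joined in the opposite case, siME2 over siCtrl had 191 domains broken up (52.0%) and 29 joined (7.90%). Over all merged regions with a peak in both lists the shares were 11.8% and 5.15%, and over the regions of 2 to under 5 kb they were 32.4% and 10.6%. In siME2+αKG over siME2, 24 domains were broken up (6.54%) and 120 joined (32.7%), against 6.31% and 9.8% of all merged regions. Between siME2+αKG and siCtrl, 152 were broken up (41.4%) and 86 joined (23.4%), against 9.59% and 6.32%. The comparisons share libraries, and a wide region has more places to break. The same list that made a region a member also tends to hold it whole, which is why nothing is read from the distance to the background shares.

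Each list's wide peaks were also looked up in the other lists, which differ in depth as given above. Of the 153 wide siME2 peaks, 49 (32.0%) lay in at least 2 pieces in siCtrl, and of the 307 wide siCtrl peaks 246 (80.1%) did so in siME2, against 5.36% and 14% of peaks of any width. Of the 254 wide siME2+αKG peaks, 183 (72.0%) lay in pieces in siME2, and of the 153 wide siME2 peaks 58 (37.9%) did in siME2+αKG, against 11.2% and 6.36% of peaks of any width. Of the 254 wide siME2+αKG peaks, 121 (47.6%) lay in pieces in siCtrl, and of the 307 wide siCtrl peaks 187 (60.9%) did in siME2+αKG, against 7.47% and 11.5%. Wide peaks of any list were thus often split in another. The split was most frequent where siME2 was the list looked in, and closest to even between siME2+αKG and siCtrl. Peaks of 2 to under 5 kb showed the same order at lower shares, 19.4% for siME2 peaks in siCtrl and 43.3% for siCtrl peaks in siME2.

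**Figure D4:**
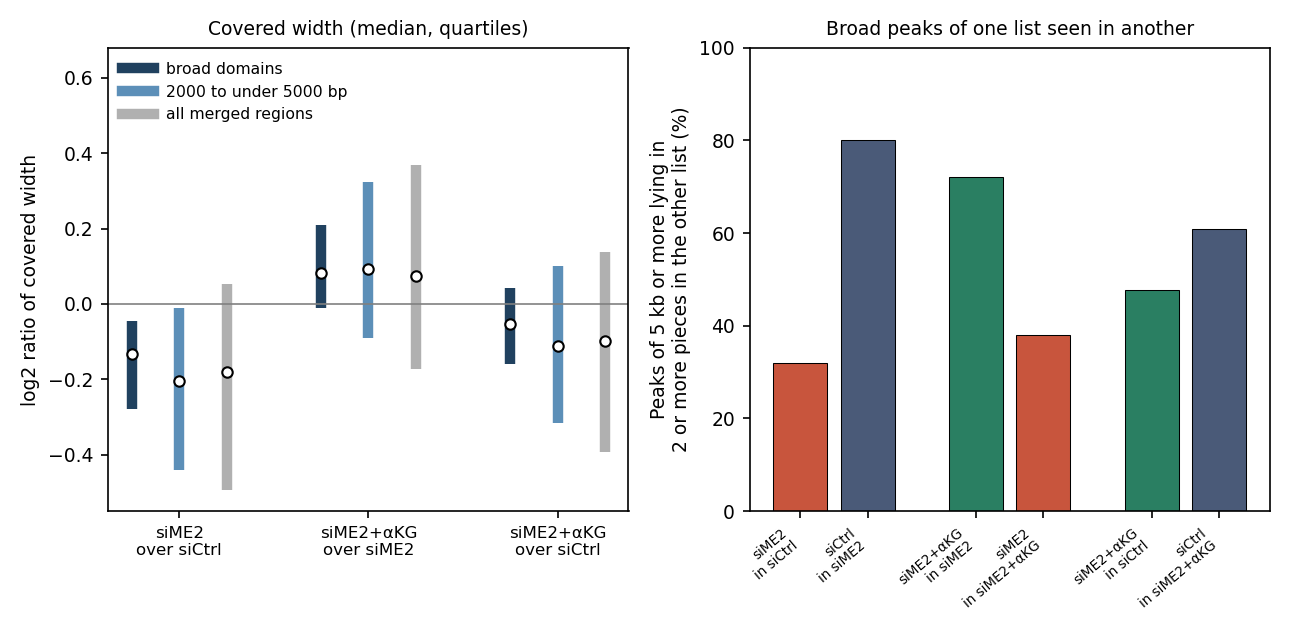
Left, log2 ratio of the width covered by peaks in broad domains, regions of 2 to under 5 kb and all merged regions for 3 comparisons, with medians (circles) and quartiles (bars). Right, share (%) of the wide peaks of a first list that lie in at least 2 pieces in a second, which is 32.0% for siME2 in siCtrl, 80.1% for siCtrl in siME2 and 47.6% to 72.0% for siME2+αKG in the others.

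Break-up was seen at all summit heights and gene positions. Sorted by mean summit height, 9.02% of the lowest tertile, 22.1% of the middle and 25.2% of the highest were single peaks in siME2. The same tertiles had 37.7%, 51.6% and 45.5% in siME2+αKG, and 54.9%, 63.1% and 70.7% in siCtrl. By position, domains around a whole gene were single in 50%, 21.8% and 65.4% of cases in siME2+αKG, siME2 and siCtrl, and domains inside a gene in 39.5%, 13.6% and 60.5%. The 24 domains without a protein-coding gene were single in 25%, 29.2% and 75% in the same lists, with siME2+αKG below siME2. Domains that held the start of their leading gene had the higher summits. Whole-gene domains had medians of 7.68, 7.47 and 8.30 fragments per 1000000 tags in siME2+αKG, siME2 and siCtrl. Domains holding the start but not the end had 6.10, 6.46 and 6.69 in the same lists. Domains at a gene end had 3.78, 3.88 and 3.69, and those inside a gene 3.78, 4.02 and 3.92.

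Among the domains broken up most in siME2 over siCtrl were MOK, a kinase gene, with 3 pieces in siME2+αKG, 7 in siME2 and 1 in siCtrl, PPP1R10, a phosphatase subunit gene, with 4, 7 and 1 over its start (and 1, 1 and 2 in a second domain at its end), and LRRC75A with 3, 6 and 1. ZNFX1, whose domain holds most of the non-coding snoRNA host ZFAS1, had 2 pieces in siME2+αKG, 12 in siME2 and 2 in siCtrl. Joined in siME2 over siCtrl were PLK2, a polo-like kinase gene, with 2, 1 and 5 pieces in siME2+αKG, siME2 and siCtrl, and TXNIP, an inhibitor of thioredoxin, with 5, 1 and 4. The domains joined in siME2+αKG over siME2 included SLC12A4 with 1, 6 and 3 pieces, CTPS1, which encodes CTP synthase, with 1, 6 and 4, and ANXA2, annexin A2, with 1, 5 and 4, in siME2+αKG, siME2 and siCtrl. ANXA2 has a second domain farther into the gene, with 5, 6 and 1 pieces in siME2+αKG, siME2 and siCtrl. HMGA2, a chromatin architectural protein gene, had 1, 5 and 7 pieces in the same lists in a domain inside the gene, but 3, 2 and 1 in the domain over its start site. SPARC, a matrix glycoprotein gene, had 5, 5 and 1. PLEC, the widest domain, was in 14 pieces in siME2+αKG, 6 in siME2 and 3 in siCtrl, so the order of the lists at a single domain often departed from the order over all of them.

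**Figure D5:**
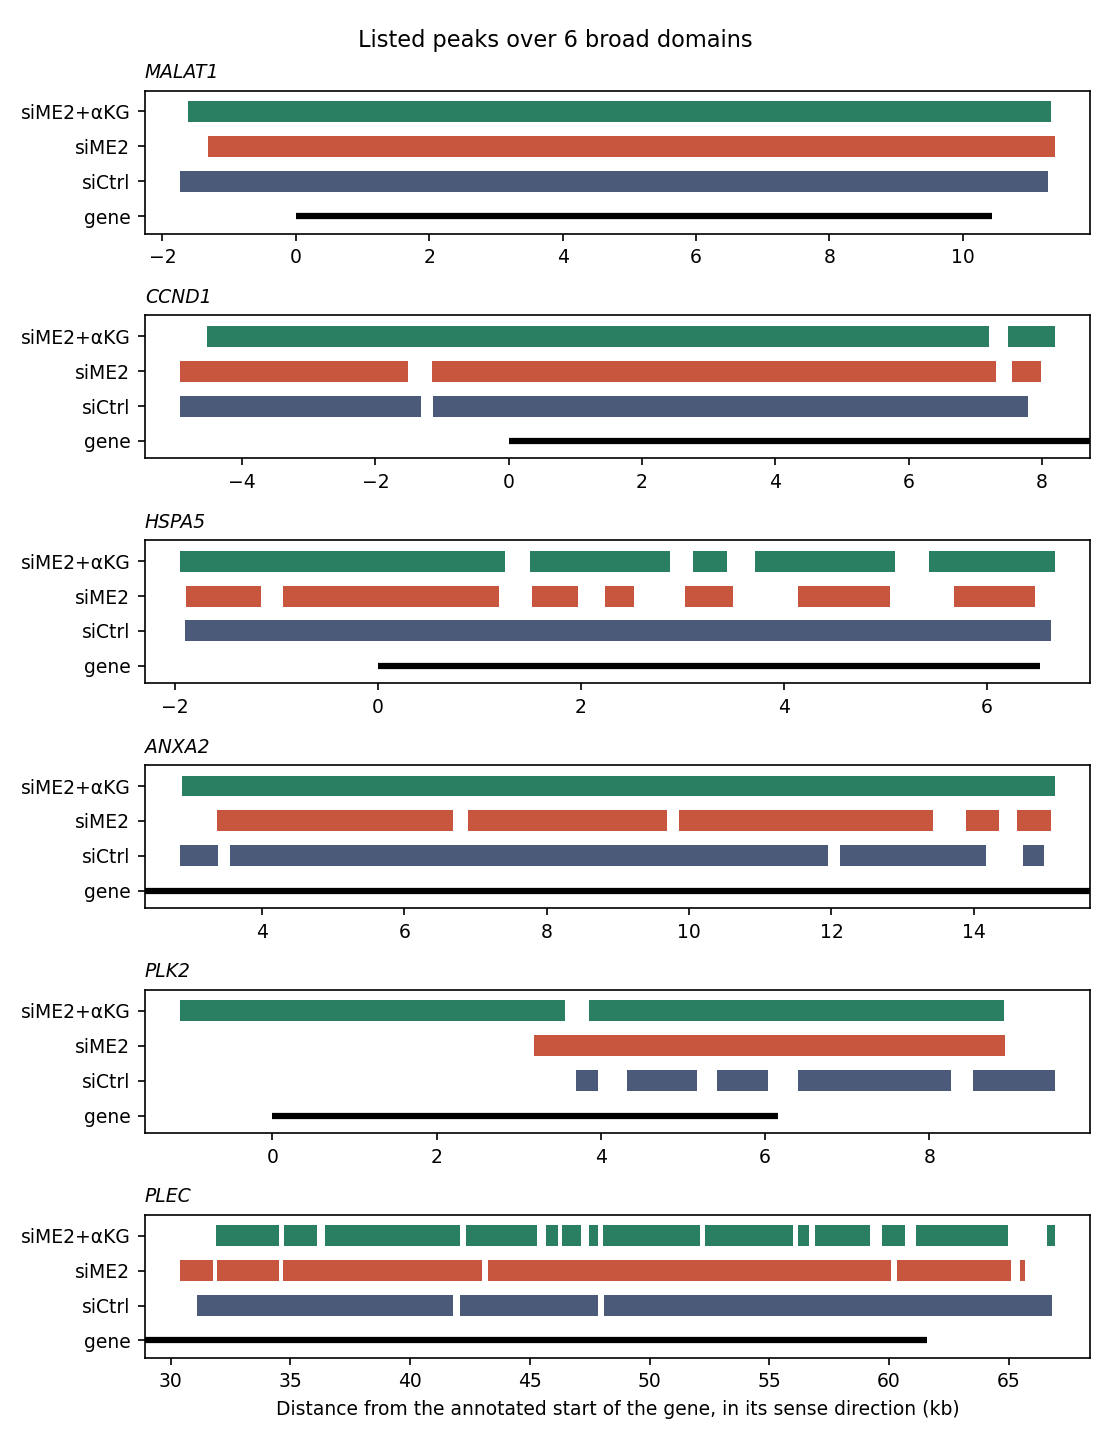
Listed peaks (bars) in siME2+αKG, siME2 and siCtrl over the domains of MALAT1, CCND1, HSPA5, ANXA2, PLK2 and PLEC, against the distance in kb from the annotated start of the gene, with the gene as a black line clipped to the view and each peak drawn whole, also where it runs past the domain. MALAT1 is 1 peak in every list, HSPA5 is 5, 7 and 1 peaks and ANXA2 1, 5 and 4 in siME2+αKG, siME2 and siCtrl, while PLK2 has 1 peak in siME2 and 5 in siCtrl.

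Covered width changed little at most domains. The median log2 ratio was -0.13 for siME2 over siCtrl, with lower coverage in siME2 in 315 of 367 domains, but it was 0.012 when the domains were taken from the siME2 list alone. It was 0.08 for siME2+αKG over siME2, lower in 101 of 367, and -0.033 with domains from siME2 alone. For siME2+αKG over siCtrl it was -0.05, lower in 243, and 0.041 with domains from siME2+αKG alone. The direction of each median thus depends on which list supplies the domains. Over all merged regions the medians were -0.18, 0.07 and -0.10 in the same comparisons. A fall of at least 1.5-fold in siME2 over siCtrl was seen in 22 domains (5.99%) and a rise in 0, against 20.6% and 5.2% of all merged regions. For siME2+αKG over siME2 it was 0 lower and 14 higher (3.81%), against 8.48% and 15.4%. For siME2+αKG over siCtrl it was 4 lower (1.09%) and 1 higher (0.272%), against 15.6% and 7.59%. Coverage cannot exceed the width of the domain, and siCtrl already covered a median of 98.8% of it, so rises over siCtrl had little room. The domains were also chosen for width, so nothing is read from the distance to these background shares.

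The largest covered-width ratios were at domains of low or moderate summits. For siME2 over siCtrl, the domain at the end of GRK6, a receptor kinase gene, had a log2 ratio of -1.80. This domain, which holds 3020 bp of the gene, was covered over 4993 bp in siME2+αKG, 1565 bp in siME2 and 5467 bp in siCtrl. The domain at NDUFA4L2, a hypoxia-induced mitochondrial protein gene, was covered over 3583 bp in siME2+αKG, 2465 bp in siME2 and 5949 bp in siCtrl (-1.27). The PLK2 domain was covered over 5744 bp in siME2 and 4015 bp in siCtrl (0.52), with 27 and 30 fragments at the summit. At CTPS1, the gene-body domain was covered over 9341 bp in siME2+αKG, 3713 bp in siME2 and 8780 bp in siCtrl (1.33 for siME2+αKG over siME2), with summits of 31, 21 and 30 fragments. TPM1, tropomyosin 1, had less coverage in siME2+αKG than in siME2, 3815 against 5652 bp (-0.57).

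Summit heights differed little in the median. A height is the fragment number at the tallest summit of a domain per 1000000 filtered ChIP tags. The median heights over the 367 domains were 5.40 in siME2+αKG, 5.46 in siME2 and 5.84 in siCtrl. The median log2 height ratio was -0.07 for siME2 over siCtrl, -0.015 for siME2+αKG over siME2 and -0.06 for siME2+αKG over siCtrl. Relative to the median over all merged regions, which was -0.02, -0.06 and -0.08 in the same comparisons, the last pair become 0.049 and 0.019, so no direction is read from them. A height difference of at least 1.5-fold was found for siME2 over siCtrl in 5 domains lower (1.36%) and 3 higher (0.817%), against 3.8% and 3.14% of all merged regions. In siME2+αKG over siME2, 5 were lower (1.36%) and 3 higher (0.817%), against 5.16% and 2.89%. In siME2+αKG over siCtrl, 4 were lower (1.09%) and 1 higher (0.272%), against 4.55% and 2.36%.

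Each height ratio was given a 95% exact conditional binomial interval, which covers counting error only. For siME2 over siCtrl the interval lay above 0 in 3 domains and below 0 in 7 (2.72% together). Over all merged regions the shares were 0.515% and 1.04% (1.55% together). The 3 domains above 0 were ENTPD8 (52 fragments in siME2 and 36 in siCtrl), BCAR1 (49 and 36) and MYO1C (94 and 82). Those below included BBC3, the gene of the p53-induced cell death protein PUMA, with 87 fragments in siME2+αKG, 57 in siME2 and 117 in siCtrl (log2 -0.72 for siME2 over siCtrl). MIDN had 85, 54 and 104 fragments (-0.63) and the lactate transporter gene SLC16A3 121, 93 and 163 (-0.49) in the same lists. For siME2+αKG over siME2, 0 lay above and 3 below (0.817% together), against 0.333% and 1.92% of all merged regions (2.25% together). For siME2+αKG over siCtrl, 1 (MALAT1) lay above and 9 below (2.72% together), against 0.159% and 2.08% (2.24% together). Some of 367 such intervals miss 0 by counting error alone, so no named domain is taken to differ.

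The gaps that split wide peaks were mostly short. Within the wide siCtrl peaks split in siME2 there were 538 gaps of 151 to 2872 bp with a median of 239.5 bp, 355 of them (66.0%) no longer than 300 bp and 17 over 1000 bp. Within the wide siCtrl peaks split in siME2+αKG there were 351 with a median of 225 bp, and within the wide siME2+αKG peaks split in siME2 356 with a median of 237.5 bp. In the opposite direction, siCtrl left 65 gaps with a median of 223 bp in wide siME2 peaks. Gap sequence was lower in GC than the rest of the same peaks in every direction. For siME2 gaps in siCtrl peaks it was 49.2%, against 56.0% in the rest, with 18.6 CpG per kb against 33.0, and for siCtrl gaps in siME2 peaks it was 47.4% against 55.5%. For siME2+αKG gaps in siCtrl peaks it was 51.5% against 56.3%. The CCND1 gap printed above, at 31.6% GC, was thus lower than these averages, and the VIM and RPL3 gaps lay on either side of the siME2 value. The part of GC content in the break-up was not tested. Of the 538 siME2 gaps, 180 lay in introns, 235 overlapped an exon and 123 lay outside protein-coding genes. The shares of exon and intron in the rest of the same peaks were not computed, so nothing is read from these counts.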

How the data were processed

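Pol II ChIP-seq of SK-Hep1 cells was available as 3 peak lists, 1 ChIP library each, called against their own inputs (6 samples in all). Per the submitters' processing notes, reads were aligned with Bowtie2 2.3.5.1 to hg19 and peaks called with MACS2 2.2.6. The caller version written in the headers is 2.2.7.1, and the difference was not resolved. Per the file headers, the threshold was p 1e-05, 1 tag was kept per position, model fold limits were 10 and 30, tags were single-end of 150 bp, and broad calling was off. The deposited pileup is a signal, the extended fragments over a summit, and it was divided by the caller's scale of 0.900 for siME2+αKG to return whole fragments (largest deviation 0.00553). The deposited fold enrichment is a ratio to the local input background, and the deposited −log10 q values, which are the authors', served as a filter in alternatives. Peak length is in bp.

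Computed here with pandas 2.3.3, numpy 2.4.6, scipy 1.17.1 and matplotlib 3.10.9 were the merged domains, pieces (any peak overlapping a domain by 1 bp), covered width, gaps, summit heights per 1000000 filtered ChIP tags, gene overlap with GENCODE release 44 on GRCh37, and sequence from the GRCh37 genome. The fragments behind each height and the tags behind each list are given beside the results. Intervals are 95% exact (Clopper-Pearson; conditional binomial for ratios) and cover counting error only. The counting code was tested on simulated peaks. The domains, the 16 gene lists and the comparisons were chosen with earlier results of these data known. Named domains are the 12 widest, the 6 with the highest siCtrl summits, those with the largest change in pieces or covered width per comparison, up to 3 members of each gene list, the widest without a coding gene, CCND1 and ME2, and neighbours of the threshold, with further examples chosen after their values were seen. The 5S cluster and histone copies are uncertain. The repeat-masked share named in the design was not computed, since the genome used here carries no masking. Some named domains and 1 gene list (malate and tricarboxylic acid cycle) are not reported here.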

Additional observations from a re-analysis of the deposited data

How the results depend on the processing

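Counts of domains follow the definition of a wide peak. At a minimum of 4000, 7500 and 10000 bp there were 596, 128 and 50 domains, and with gaps of up to 300 or 1000 bp joined first 600 and 1127. In the same order, siME2+αKG held 414, 82, 28, 425 and 808 wide peaks, siME2 289, 40, 15, 303 and 650, and siCtrl 495, 111, 42, 507 and 975, so siME2 held the fewest and siCtrl the most in each of these settings. A start site was held by 53.7% of domains with first start sites alone and by 82.8% at 7500 bp. Genes overlapped numbered 197 with at least 50% of the gene covered, 120 wholly inside and 193 at 7500 bp.

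For siME2 over siCtrl, 40.1% of domains were broken up with gaps of up to 300 bp closed, 80.1% with domains from siCtrl alone and 60.2% at 7500 bp. Joined domains were 32.0% with domains from siME2 alone and 4.69% at 7500 bp. Covered width had a median log2 ratio of -0.034 by extent and reversed to 0.012 with domains from siME2 alone, and height was -0.39 in fragments not divided by tags. For siME2+αKG over siME2, broken domains were 37.9% with domains from siME2 alone and 3.13% at 7500 bp, and joined ones 72.0% with domains from siME2+αKG alone. Covered width was 0.017 by extent, 0.13 with domains from siME2+αKG alone and reversed to -0.033 with domains from siME2 alone. Height reversed to 0.049 relative to all merged regions, 0.30 undivided by tags and 0.023 at 7500 bp. For siME2+αKG over siCtrl, broken domains were 22.1% with gaps closed, 60.9% with domains from siCtrl alone and 47.7% at 7500 bp, and joined ones 13.4% with gaps closed and 47.6% with domains from siME2+αKG alone. Covered width was -0.011 by extent, -0.10 with domains from siCtrl alone and reversed to 0.041 with domains from siME2+αKG alone, and height reversed to 0.019 relative to all merged regions. The cause of these changes was not tested, beyond that taking domains from a list makes that list whole by construction. For this reason no joined share exists with domains from the list named second alone, nor a broken share with domains from the list named first alone. Of 87 alternatives, 36 stayed within the limits set for the value.

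No paired analysis was possible because each condition had 1 ChIP library. Depth also differed, with the fewest ChIP tags in siME2 (10445326), and its part in the lists was not tested.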
